A study of Homo sapiens with 12 samples.

Results

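Metallothioneins are small cysteine-rich proteins that bind zinc and copper, and their genes are among the best known targets of metal-responsive transcription factor MTF1. In human cells MTF1 senses free zinc and acts through short metal response elements in promoters, including that of the zinc exporter gene SLC30A1. Zinc enters the cytosol through ZIP proteins (SLC39 genes) and leaves it, to the outside or into organelles, through ZnT proteins (SLC30 genes). In keratinocytes, zinc handling is linked to differentiation, wound repair and inflammation, and metallothionein genes also respond to cytokines and glucocorticoids. The 8 genes described here are the metallothionein genes MT2A, MT1E, MT1X and MT1F, the regulator gene MTF1, the exporter gene SLC30A1 and the importer genes SLC39A14 and SLC39A8. They were taken by symbol from a count table of 22545 genes, and all 8 were found and passed the filter on low counts, which left 14207 genes to be tested.

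RNA was sequenced from HaCaT cells, a spontaneously immortalised human keratinocyte line, in 12 libraries of 4 groups with 3 libraries each. The groups were cells given M5 and lefamulin (ML), cells given M5 and retapamulin (MR), cells given M5 alone, and cells with no treatment, which the labels call WT. All groups are of this 1 line, and all 12 libraries have a wild-type genotype in the labels. M5 is a common name for a mix of inflammatory cytokines used to give keratinocytes psoriasis-like traits; its composition, like the doses, times and solvent, is not stated in the labels. Both compounds are pleuromutilin antibiotics, with a shared tricyclic core and different side chains. Libraries held 35110519 to 37520999 counts over genes. Of 6 keratinocyte markers all were counted in every group, but KRT14, the basal keratin that usually pairs with KRT5, was low. Its mean levels were 0.796, 0.730, 3.43 and 8.52 CPM (counts relative to the TMM-scaled library size) in ML, MR, M5 and WT libraries. Those of KRT5 were 454, 437, 637 and 1632 CPM. KRT17 was also low, at 4.09, 4.62, 18.83 and 28.99 CPM. DSG3 and COL17A1 rose by 0.52 and 0.54 on the log2 scale with M5, and rose again with each compound over M5. TP63 rose by 1.13 with M5 and was lower with each compound than with M5. The list summed to 978 to 1002, 991 to 1018, 1136 to 1177 and 1922 to 1993 CPM in ML, MR, M5 and WT libraries. Some markers of other cell types were also counted. Of 5 leukocyte markers in the table, 3 had 3 or fewer counts in every library, PTPRC among them; the list summed to 39.4 to 42.8, 74.7 to 84.4, 29.8 to 31.1 and 11.9 to 13.98 CPM in ML, MR, M5 and WT libraries, nearly all of it CD68, and its part in the results was not tested. Of 3 endothelial markers in the table, PECAM1 had at most 1 count in any library, and the list summed to 118 to 123, 99.8 to 115, 117 to 122 and 14.6 to 16.7 CPM, nearly all of it CDH5; its part in the results was not tested. The fibroblast list (6 genes, 4 of them with 3 or fewer counts in every library) summed to 15.4 to 16.9, 9.31 to 11.1, 5.61 to 6.86 and 7.05 to 7.89 CPM, and the melanocyte list (4 genes, 1 of them so low) to 14.5 to 16.1, 19.5 to 21.4, 9.89 to 12.6 and 25.4 to 27.3 CPM; their part was not tested either.

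Metal response elements are the sites through which MTF1 acts, so the promoters are shown first. The following sequences are the 250 bases before the RefSeq start of MT2A (chr16:56608334-56608583, plus strand), MT1X (chr16:56682220-56682469, plus strand) and SLC30A1 (chr1:211579162-211579411, minus strand) in GRCh38.p14, each written in the direction given by the reference. The bases after the start were found in an annotated transcript of the gene for MT2A and MT1X. For SLC30A1 they were not, so its direction was not borne out by this check. Capitals mark the core of the metal response element, searched as TGCGCNC and TGCACNC on both strands, and no match overlapped another.
MT2A: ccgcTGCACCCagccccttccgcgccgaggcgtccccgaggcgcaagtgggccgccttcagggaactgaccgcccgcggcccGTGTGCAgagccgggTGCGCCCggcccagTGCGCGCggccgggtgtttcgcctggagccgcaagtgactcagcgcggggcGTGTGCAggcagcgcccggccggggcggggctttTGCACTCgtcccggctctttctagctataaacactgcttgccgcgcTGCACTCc
MT1X: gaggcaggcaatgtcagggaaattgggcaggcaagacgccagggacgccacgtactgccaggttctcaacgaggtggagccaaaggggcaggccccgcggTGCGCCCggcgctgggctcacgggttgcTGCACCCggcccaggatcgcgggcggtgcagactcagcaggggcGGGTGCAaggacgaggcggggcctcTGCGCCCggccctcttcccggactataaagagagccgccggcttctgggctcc
SLC30A1: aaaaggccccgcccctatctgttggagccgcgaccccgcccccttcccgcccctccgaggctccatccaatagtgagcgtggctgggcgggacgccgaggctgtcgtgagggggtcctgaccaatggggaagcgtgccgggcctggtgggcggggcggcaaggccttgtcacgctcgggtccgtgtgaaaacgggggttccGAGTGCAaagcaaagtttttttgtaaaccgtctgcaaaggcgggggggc
MT2A held 7 matches, MT1X 4 and SLC30A1 1. Of 35116 promoter windows of the same length in RefSeq, 24.8% held at least 1 match and 0.370% held 4 or more. The window of MTF1 held 0 matches. SLC39A8 has 3 listed starts, whose windows held 0, 0 and 1. The AP-1 motif TGACTCA was found 1 time in the MT2A window and in none of the other windows searched, against 4.20% of all windows. The NF-kB motif GGGANTTCC was found in none of these windows, against 1.59% of all windows. These matches are letters in the reference and not measured binding. Promoters of MT1E, MT1F and SLC39A14 were not analysed here. The 4 metallothionein genes lie on chromosome 16 in the order MT2A, MT1E, MT1F, MT1X.

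**Figure D1:**
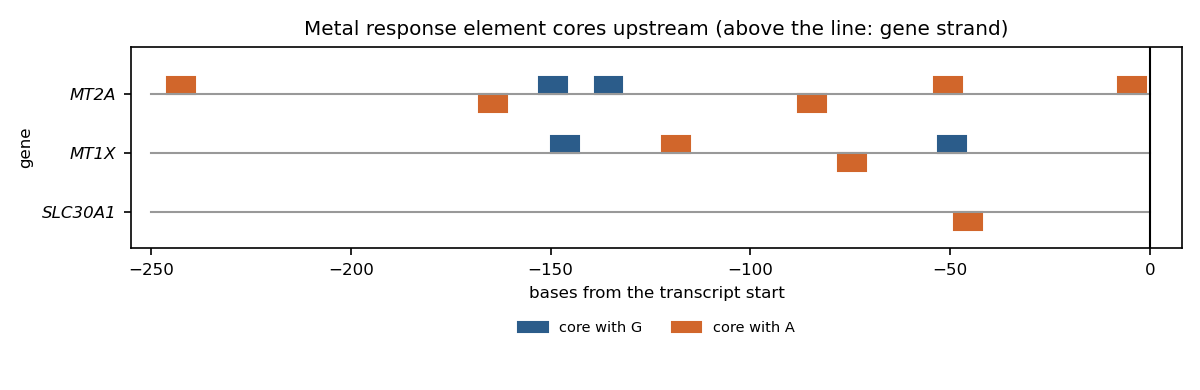
Position of each metal response element core in the 250 bases before the start of MT2A, MT1X and SLC30A1 (x axis, bases from the start; one line per gene). Boxes above a line are on the strand of the gene and boxes below it on the other strand, coloured by the 2 forms of the core. For SLC30A1 the strand is that of the reference, which the check against transcripts did not bear out. MT2A holds 7, MT1X 4 and SLC30A1 1.

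The group means of 6 members stood in the same order, with untreated cells lowest, then M5, M5 with lefamulin and M5 with retapamulin. These were MT2A, MT1E, SLC30A1 and SLC39A14, each of whose steps was called, and MT1X and MTF1, of which some neighbouring groups were not called different. MT1F was lowest and SLC39A8 highest with M5 alone. M5 against untreated cells asks what the cytokine mix does to this system: 6 members rose, MT1F fell and MT1X was not called. Over all genes tested, 55.2% were called (28.3% higher, 26.9% lower), and 59.2% had groups that did not overlap, against 7 members. Among the members MT2A and SLC39A8 rose most, by more than 5-fold, and the other rises were under 1.5-fold. The median log2 fold change was 0.45 over the members and -0.02 over all genes tested. With M5 and lefamulin against M5 alone, 6 members rose, SLC39A8 fell and MTF1 was not called, where 67.9% of genes were called (33.6% higher, 34.3% lower) and 71.2% had groups that did not overlap, against 6 members. With M5 and retapamulin against M5, 7 members rose and SLC39A8 fell, where 72.1% were called (34.1% higher, 38% lower) and 73.8% had groups that did not overlap, against all 8 members. Those 2 comparisons share the M5 libraries. Their medians over the members were 0.29 and 0.86, against -0.00075 and -0.05 over all genes. Scaling by library totals alone in place of TMM moved the median of all genes to -0.14 in M5 over untreated, -0.05 in lefamulin over M5, -0.19 in retapamulin over M5 and 0.10 in lefamulin over retapamulin. Of the genes called, those that were higher then made up 31.5%, 44.8%, 37.4% and 72.8%, against 51.3%, 49.5%, 47.3% and 46.97% with TMM.

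**Figure D2:**
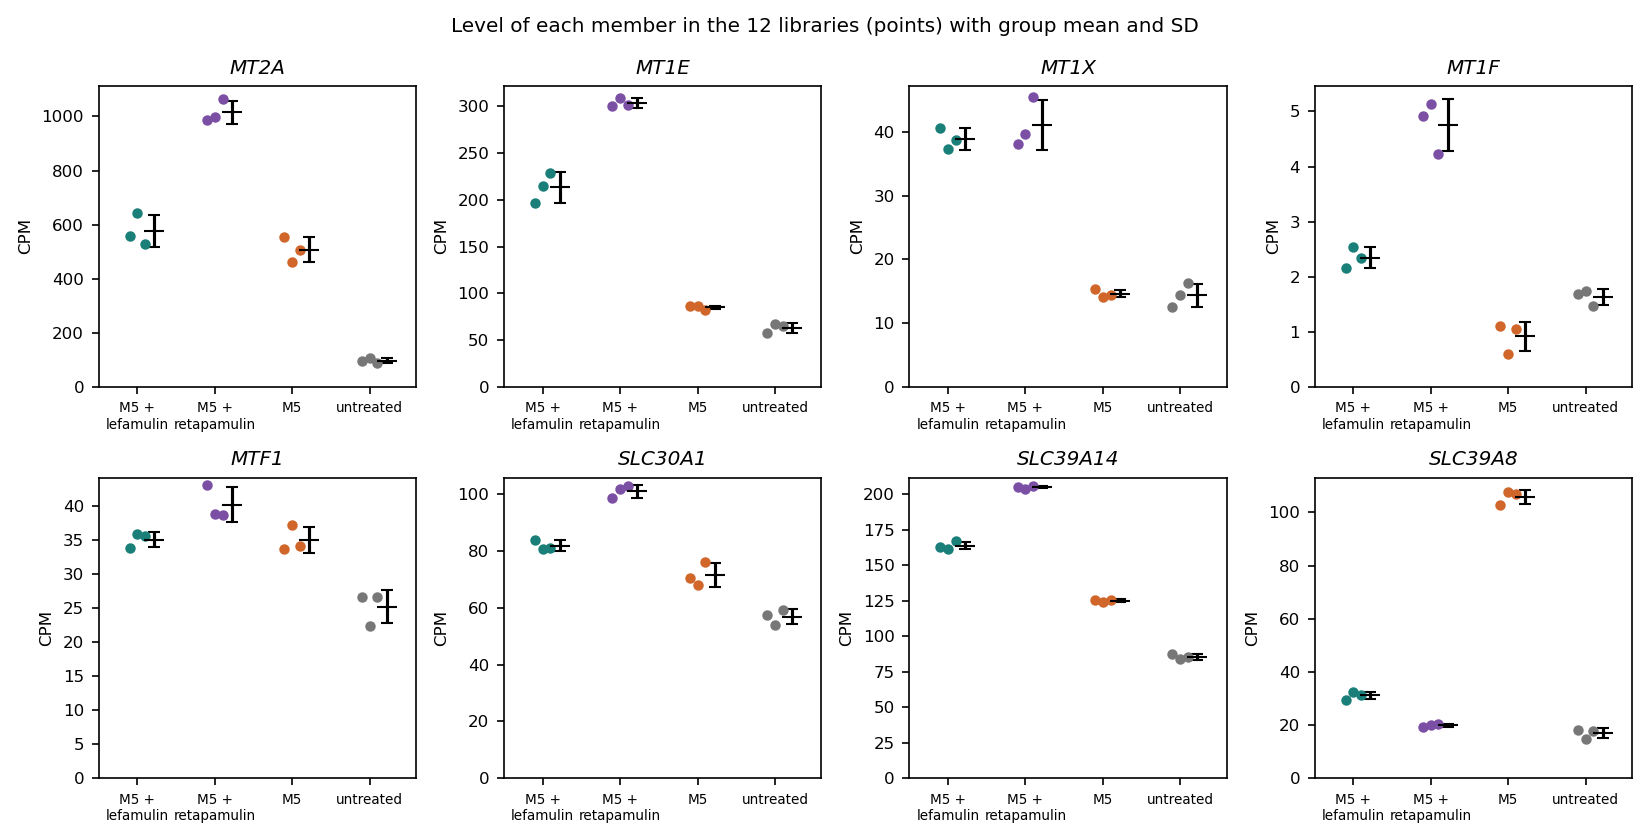
Level of each of the 8 genes in CPM (y axes, from 0) in the 12 libraries, by group (x axes); points are libraries and the bar beside them is the mean ± SD (n = 3). Retapamulin libraries are highest for MT2A, MT1E and SLC30A1, while SLC39A8 is highest with M5 alone, at 103 to 108 CPM.

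**Figure D3:**
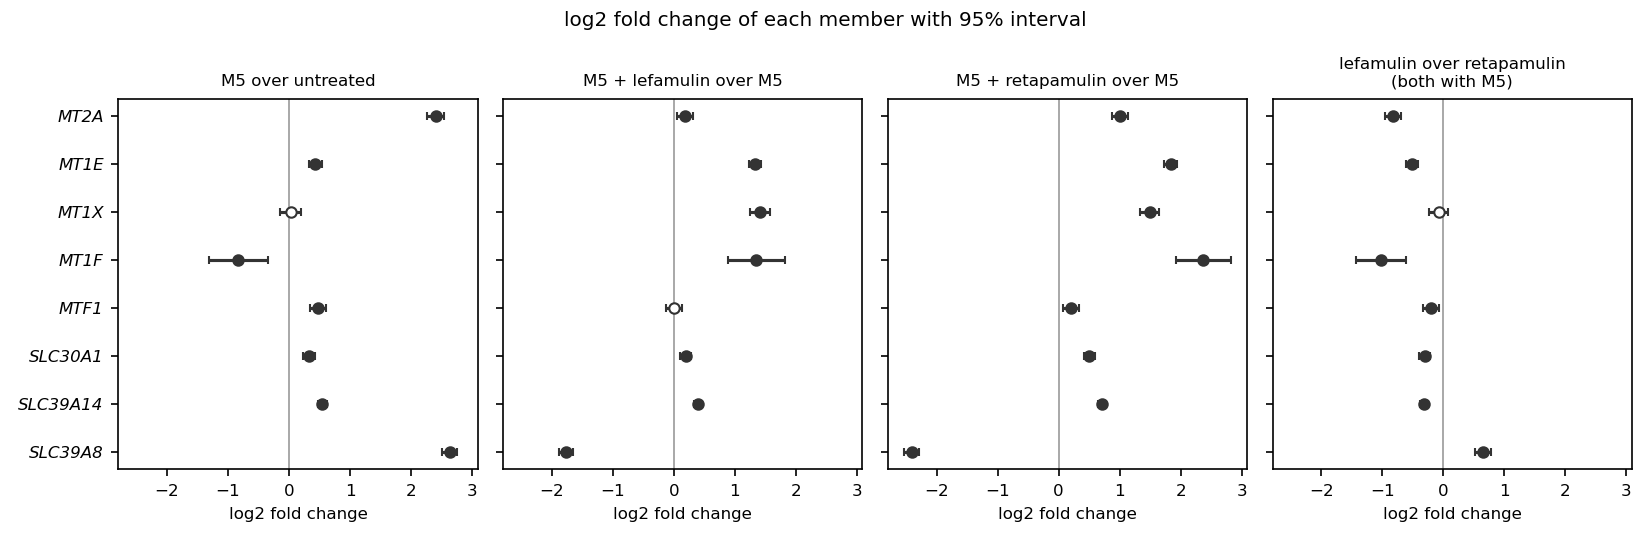
log2 fold change of each gene (x axes) with its 95% interval in 4 comparisons; filled points had an edgeR adjusted p under 0.05 and open points did not. MT2A and SLC39A8 lie farthest to the right with M5, and SLC39A8 is the one member left of 0 with either compound over M5.

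MT2A, the main metallothionein of most human tissues, was the most abundant member on the per-length FPKM scale, with means of 1404, 2330, 1280 and 263 FPKM in ML, MR, M5 and WT libraries. MT1E followed with 279.7, 374, 115 and 92.6 FPKM and MT1X with 94.3, 93.6, 36.6 and 38.96 FPKM. Next came SLC39A14 with 14.9 to 29.9 and SLC30A1 with 10.6 to 15.8 FPKM over the group means, while SLC39A8 spanned 2.54 to 14.9, MT1F 1.98 to 9.37 and MTF1 3.12 to 4.18 FPKM.

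The levels of MT2A were 557, 641 and 527 CPM with M5 and lefamulin, 986, 997 and 1064 CPM with M5 and retapamulin, 553, 463 and 508 CPM with M5 alone, and 94.1, 106 and 87.6 CPM in untreated cells. The untreated libraries lay below all others, the lefamulin and M5 libraries overlapped, and the retapamulin libraries were the highest. M5 raised MT2A 5.29-fold over untreated cells (95% interval 4.79 to 5.84, log2 fold change 2.40, SE 0.07, edgeR adjusted p = 1.2e-19). In such bulk libraries, a change in RNA per cell and a change in the share of cells of a type cannot be told apart. Retapamulin raised it again, to 1016 ± 42.1 CPM against 508 ± 44.9 CPM with M5 alone (SD, n = 3 each), or 2.00-fold (interval 1.83 to 2.19, edgeR adjusted p = 5.3e-13). Lefamulin raised it 1.13-fold (interval 1.03 to 1.24, edgeR adjusted p = 0.0150). That call ended with DESeq2, on library totals and on FPKM, and without M5 replicate 2 (log2 fold change 0.11) or ML replicate 2 (0.094), with adjusted p from 2.1e-06 to 0.198 over its alternatives.

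MT1E and MT1X, both of the MT1 branch of the family, were both higher with either compound than with M5 alone. MT1E had 196, 215 and 229 CPM with lefamulin, 300.1, 309 and 301 CPM with retapamulin, 85.9, 86.2 and 82.6 CPM with M5, and 57.3, 67.1 and 64.6 CPM untreated. No library of one group overlapped another group. The rise was 1.35-fold for M5 over untreated (edgeR adjusted p = 2.1e-07), 2.51-fold for lefamulin over M5 (adjusted p = 3.8e-17) and 3.57-fold for retapamulin over M5 (adjusted p = 4e-20). MT1X had 40.7, 37.3 and 38.8 CPM with lefamulin, 38.2, 39.6 and 45.6 CPM with retapamulin, 15.3, 14.2 and 14.5 CPM with M5, and 12.5, 14.3 and 16.2 CPM untreated. The compound groups overlapped each other, as did M5 and untreated cells, and the 2 pairs stood clear of one another. Lefamulin raised MT1X 2.66-fold over M5 (log2 fold change 1.41, SE 0.08, edgeR adjusted p = 5.2e-14) and retapamulin 2.81-fold (1.49, SE 0.08, adjusted p = 1.3e-14). M5 over untreated gave 1.02-fold, with an interval of 0.903 to 1.15 (adjusted p = 0.804).

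MT1F, another MT1 gene, was the scarcest of the 4, with 22 to 174 counts a library. It had 2.16, 2.54 and 2.34 CPM with lefamulin, 4.91, 5.13 and 4.22 CPM with retapamulin, 1.10, 0.605 and 1.05 CPM with M5, and 1.69, 1.74 and 1.47 CPM untreated. All 4 groups were separate, with M5 the lowest. M5 lowered it 1.78-fold against untreated cells (log2 fold change -0.83, SE 0.23, edgeR adjusted p = 0.0037), so it moved against MT2A and MT1E under M5. Against M5, lefamulin raised MT1F 2.55-fold (interval 1.85 to 3.52) and retapamulin 5.17-fold (interval 3.78 to 7.07). Its higher level with lefamulin than in untreated cells (1.44-fold, edgeR adjusted p = 0.0292) was not called on library totals (0.127), on FPKM (0.0529 and 0.0801), or without WT replicate 3 (0.0888), ML replicate 2 (0.0864) or ML replicate 3 (0.0513). The metallothionein genes are close copies of each other, and how the authors' counting split shared reads could not be examined, so the values of single genes are uncertain in that respect.

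Together the 8 metallothionein genes with a row made up 0.0812% ± 0.00569 of counts with lefamulin, 0.126% ± 0.00332 with retapamulin, 0.0615% ± 0.00438 with M5 and 0.0192% ± 0.00139 in untreated cells (SD, n = 3 each). On the CPM scale the sums with lefamulin, retapamulin and M5 were 4.74-fold, 7.80-fold and 3.48-fold that of untreated cells. MT2A supplied 69.2%, 74.4%, 83.4% and 54.8% of metallothionein counts in ML, MR, M5 and WT libraries, and MT1E 25.8%, 22.2%, 14.01% and 36.0%. The share of MT2A was highest under M5 alone, and that of MT1E was larger with either compound than with M5. MT1X supplied 4.71%, 3.01%, 2.41% and 8.22%, and MT1F under 1% in all 4 groups. On the per-length FPKM scale the MT2A shares were larger and kept the same order of groups, at 78.6%, 83.0%, 89.2% and 65.9%, and those of MT1E were 15.8%, 13.3%, 8.06% and 23.3%. Of 16 other metallothionein genes and pseudogenes listed, 4 had a row (MT1B, MT1G, MT1H and MT3), with at most 4 counts in any library, and the other 12 were not analysed here.

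**Figure D4:**
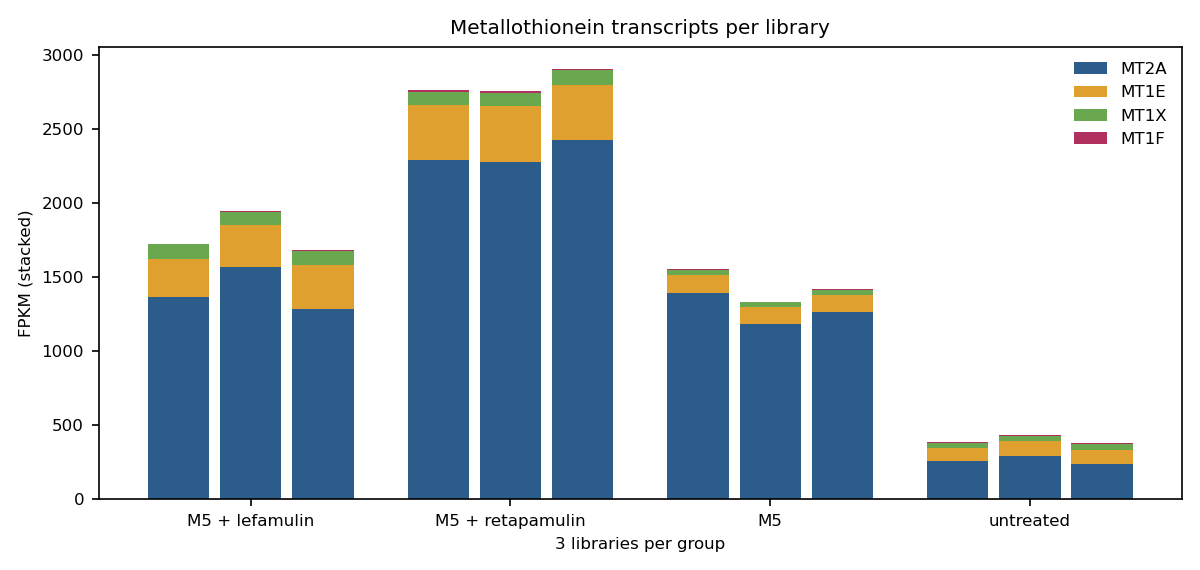
Metallothionein transcripts in each library, as FPKM of MT2A, MT1E, MT1X and MT1F stacked in 1 bar a library (y axis, from 0; 3 libraries a group along the x axis). The sums average 1783 FPKM with lefamulin, 2807 FPKM with retapamulin, 1433 FPKM with M5 and 398 FPKM in untreated cells, and MT2A is the largest part of every bar.

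MTF1 encodes the zinc-sensing factor itself. It had 33.9, 35.9 and 35.6 CPM with lefamulin, 43.2, 38.9 and 38.7 CPM with retapamulin, 33.7, 37.2 and 34.2 CPM with M5, and 26.7, 22.4 and 26.6 CPM untreated. Untreated cells lay below all other groups, and the lefamulin and M5 libraries overlapped. M5 raised MTF1 1.39-fold over untreated (interval 1.27 to 1.52, edgeR adjusted p = 9.3e-07). Lefamulin over M5 gave 1.00-fold with an interval of 0.916 to 1.10 (adjusted p = 0.965). Retapamulin over M5 gave 1.15-fold (adjusted p = 0.0063), which missed the threshold on library totals (0.377), on FPKM (0.489 and 0.4998) and without MR replicate 1 (0.0583).

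SLC30A1 encodes ZnT1, the zinc exporter of the plasma membrane and a known MTF1 target. It had 83.997, 80.6 and 80.9 CPM with lefamulin, 98.5, 102 and 103 CPM with retapamulin, 70.4, 67.9 and 76.0 CPM with M5, and 57.5, 54.0 and 59.2 CPM untreated. The 4 groups did not overlap and stood in the order untreated, M5, lefamulin, retapamulin. The rise was 1.26-fold for M5 over untreated (log2 fold change 0.33, SE 0.05, edgeR adjusted p = 1.3e-06), 1.15-fold for lefamulin over M5 (adjusted p = 4.4e-04) and 1.41-fold for retapamulin over M5 (adjusted p = 3e-10). SLC30A1, MT2A, MT1E and SLC39A14 were thus each higher in all 3 comparisons, although the call of MT2A with lefamulin depended on the processing. Of the other metallothionein genes, MT1X was not called with M5 and MT1F fell with it. The comparisons with a compound share the M5 libraries.

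SLC39A14 encodes ZIP14, which carries zinc, iron and manganese and is induced by interleukin-6 in the liver. It had 163, 161 and 167 CPM with lefamulin, 205.0, 204 and 205 CPM with retapamulin, 126, 124 and 126 CPM with M5, and 87.8, 83.9 and 85.04 CPM untreated. The groups were again separate and in the same order. M5 raised it 1.46-fold over untreated (interval 1.39 to 1.53, edgeR adjusted p = 7.6e-13), lefamulin raised it 1.31-fold over M5 (interval 1.25 to 1.37) and retapamulin 1.64-fold over M5 (interval 1.56 to 1.72).

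SLC39A8 encodes ZIP8, a close relative of ZIP14 that also carries zinc and manganese and is a known NF-kB target in human monocytes and lung cells. It had 29.6, 32.4 and 31.5 CPM with lefamulin, 19.2, 20.1 and 20.4 CPM with retapamulin, 103, 108 and 107 CPM with M5, and 18.3, 14.9 and 18.0 CPM untreated. The M5 libraries stood above the other 3 groups, and the retapamulin libraries lay just above the untreated ones. M5 raised SLC39A8 6.19-fold over untreated (interval 5.70 to 6.74, edgeR adjusted p = 6.6e-22). Its level was 3.40-fold lower with lefamulin than with M5 (log2 fold change -1.76, SE 0.06, adjusted p = 6.6e-19) and 5.31-fold lower with retapamulin (-2.41, SE 0.06, adjusted p = 2.6e-21). On the scale of mean CPM, 84.1% of the rise under M5 was absent with lefamulin and 96.8% with retapamulin. Both importers therefore rose with M5, whereas over M5 SLC39A14 rose and SLC39A8 fell with each compound.

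Compared with untreated cells, all 8 members were higher with TMM both with M5 and lefamulin and with M5 and retapamulin. Of all genes, 74% and 78.5% were called (36.9% and 37.6% higher, 37.1% and 40.9% lower), and 76.1% and 79.2% had groups that did not overlap. On library totals and on FPKM, MT1F was not called in the first of these comparisons and SLC39A8 turned in the second. MT1F also lost its call in the first without WT replicate 3, ML replicate 2 or ML replicate 3. With library totals, 38.6% and 33.7% of the genes called were higher, against 49.9% and 47.8% with TMM, and the medians of all genes were -0.18 and -0.31, against -0.02 and -0.06. MT2A was 5.99-fold and 10.6-fold higher, MT1E 3.38-fold and 4.81-fold, MT1X 2.71-fold and 2.86-fold, SLC30A1 1.44-fold and 1.78-fold, and SLC39A14 1.91-fold and 2.39-fold. SLC39A8 was still 1.82-fold higher with lefamulin than in untreated cells (edgeR adjusted p = 5.3e-12). With retapamulin it was 1.17-fold higher (log2 fold change 0.22, interval 0.085 to 0.36, adjusted p = 0.0040), a difference that was 0.13 without WT replicate 2. Library totals turned it to -0.034, which was not called, and on FPKM it turned to -0.021 and -0.026.

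Between the compounds, both with M5, lefamulin gave the lower level of 6 members and the higher level of SLC39A8, with MT1X not called; 40% of genes were called (18.8% higher, 21.2% lower), and 52% had groups that did not overlap, against 7 members. Of the genes called, 46.97% were higher with TMM, 72.8% on library totals, 36.8% with RLE scaling and 36.4% with DESeq2. Whether doses and times were matched is not known, so the values are set side by side for the conditions used. This is 1 pair of compounds, and p-values are adjusted over all genes tested. MT2A averaged 575 ± 59.2 CPM with lefamulin and 1016 ± 42.1 CPM with retapamulin (log2 difference -0.82, interval -0.95 to -0.69, edgeR adjusted p = 3.8e-10). MT1F differed by -1.02 (interval -1.43 to -0.61), MT1E by -0.51 (-0.61 to -0.41), SLC39A14 by -0.32 (-0.39 to -0.26) and SLC30A1 by -0.30 (-0.40 to -0.21). MTF1 differed by -0.20 (adjusted p = 0.0148), which was not called on library totals (0.187), on FPKM (0.313 and 0.324), or without ML replicate 1 (0.0700) or MR replicate 1 (0.102). SLC39A8 averaged 31.2 ± 1.42 CPM with lefamulin and 19.9 ± 0.614 CPM with retapamulin (log2 difference 0.65, interval 0.52 to 0.78, adjusted p = 1.7e-08). For MT1X the difference was -0.079 with an interval of -0.23 to 0.069 (adjusted p = 0.406). Lefamulin libraries thus lay below retapamulin libraries for MT2A, MT1E and MT1F and overlapped them for MT1X.

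The rest of the zinc transporter families moved in both directions, as did all genes tested. Of those, 28.3% rose and 26.9% fell with M5. Over M5, 33.6% rose and 34.3% fell with lefamulin, and 34.1% and 38% with retapamulin. Of 6 other ZnT genes tested (9 listed), 2 rose and 2 fell with M5, 2 rose and 1 fell with lefamulin over M5, and 3 rose and 3 fell with retapamulin over M5. SLC30A7, a ZnT of the Golgi, followed the order of SLC30A1, with 84.9 ± 2.03 CPM with lefamulin, 102 ± 2.59 CPM with retapamulin, 71.7 ± 2.33 CPM with M5 and 39.6 ± 0.271 CPM untreated. SLC30A6, a secretory pathway ZnT, fell by 0.31 on the log2 scale with lefamulin and fell by 0.49 with retapamulin. SLC30A4, a ZnT of intracellular vesicles, fell by 0.92 with M5, at 2.51 ± 0.146 CPM against 4.74 ± 0.669 CPM in untreated cells.

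Of 10 other ZIP genes tested (12 listed), 5 rose and 3 fell with M5, 4 rose and 5 fell with lefamulin over M5, and 3 rose and 5 fell with retapamulin over M5 (2 and 7 on library totals and on log2(FPKM + 1), 2 and 6 on log2(FPKM + 0.1)). The shares over all genes tested were 28.3% and 26.9%, 33.6% and 34.3%, and 34.1% and 38%, in that order. SLC39A10, a plasma membrane importer, changed in the directions of SLC39A8, with 27.4 ± 1.88 CPM with lefamulin, 33.2 ± 0.360 CPM with retapamulin, 57.4 ± 0.901 CPM with M5 and 35.7 ± 3.96 CPM untreated. It rose by 0.68 with M5 (edgeR adjusted p = 6.8e-10) and fell by 1.07 with lefamulin and fell by 0.79 with retapamulin. SLC39A13, a ZIP of intracellular vesicles, changed in the directions of SLC39A14, at 62.1 ± 1.33, 74.9 ± 5.05, 30.5 ± 0.880 and 22.1 ± 1.66 CPM in ML, MR, M5 and WT libraries. SLC39A7, which releases zinc from the endoplasmic reticulum, rose by 0.38 with lefamulin and 0.66 with retapamulin over M5. SLC39A2, a ZIP of the plasma membrane, was scarce, at 0.263, 0.0686, 0.666 and 1.51 CPM in ML, MR, M5 and WT libraries. On the FPKM scale SLC39A14 ranked 5 of 22 transporter genes in untreated cells and with M5, while SLC39A8 ranked 15 in untreated cells and 6 with M5, and SLC30A1 ranked 8 in both.

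**Figure D5:**
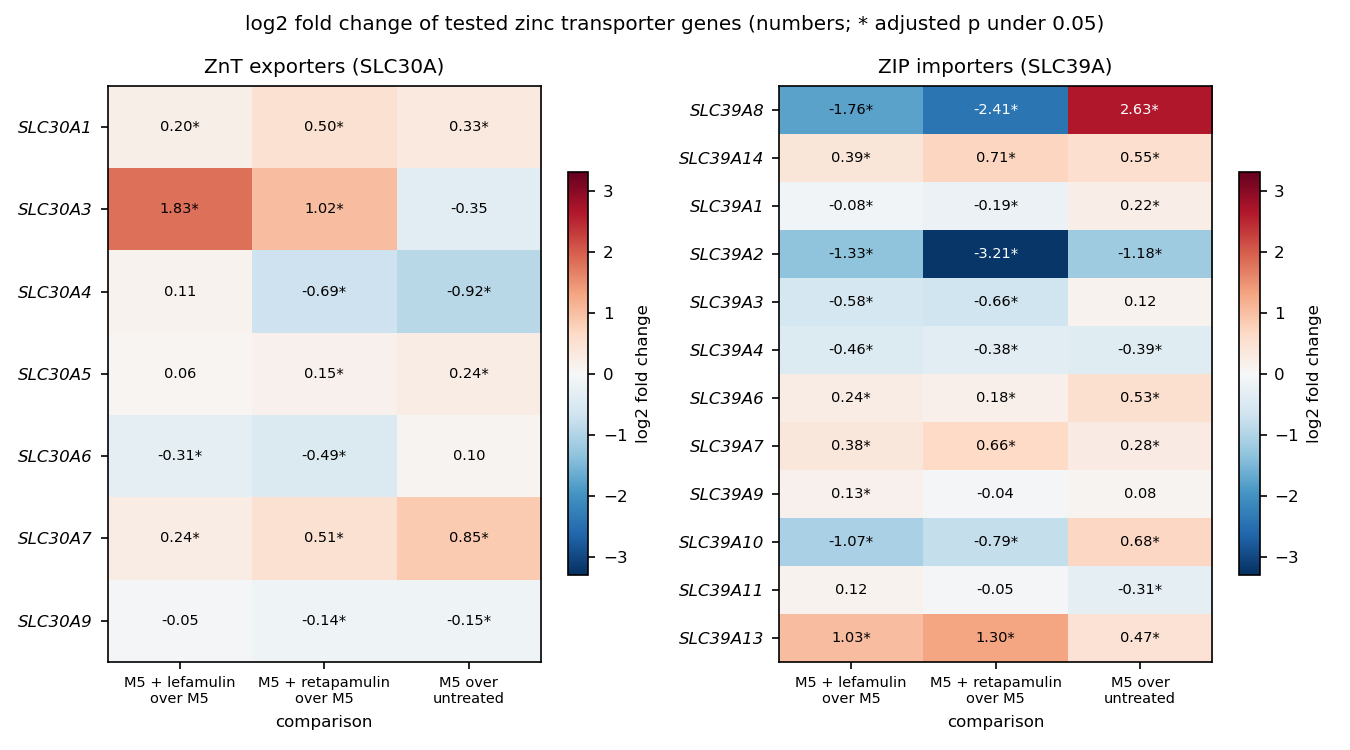
log2 fold change of every tested ZnT gene (left) and ZIP gene (right) in 3 comparisons (columns); colour and number give the change and an asterisk an edgeR adjusted p under 0.05. SLC39A8 and SLC39A10 are red with M5 and blue with both compounds, whereas SLC39A14, SLC39A13, SLC39A7 and SLC39A6 are red in all 3 columns. SLC39A1 and SLC39A3 have the same signs as SLC39A8, with smaller changes with M5 (0.22, and 0.12, which was not called).

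Genes that work beside ZnT1 or share metals with the members were set next to them. Among all genes tested, 28.3% rose and 26.9% fell with M5. Over M5, 33.6% rose and 34.3% fell with lefamulin, and 34.1% and 38% with retapamulin. Of 3 tested genes of zinc sensing and ZnT1 partners, 0 rose and 2 fell with M5, and all 3 rose with lefamulin and with retapamulin over M5. TMC6, whose protein binds ZnT1 in keratinocytes, had 61.8 ± 2.15 CPM with lefamulin, 74.8 ± 0.714 CPM with retapamulin, 29.2 ± 1.61 CPM with M5 and 31.9 ± 1.08 CPM untreated. Over M5 it rose by 1.08 and 1.36 on the log2 scale. Its fall with M5 (-0.13, edgeR adjusted p = 0.0305) was not called with DESeq2, without the filter on low counts, in a fit of only 2 groups, or without WT replicate 1, WT replicate 2 or M5 replicate 3 (0.0557 to 0.211 over these). GPR39, a zinc-sensing receptor, fell by 0.72 with M5. Of 11 copper genes, 3 rose and 4 fell with M5, 4 rose and 4 fell with lefamulin, and 4 rose and 6 fell with retapamulin. The copper importer relative SLC31A2 rose by 0.94 with lefamulin and 0.86 with retapamulin, and SCO1, a mitochondrial copper chaperone, fell by 0.94 and fell by 0.97. Of 10 iron genes, 7 rose and 1 fell with M5, 1 rose and 5 fell with lefamulin, and 2 rose and 7 fell with retapamulin. FTL, the ferritin light chain, rose with both compounds, by 0.98 and 0.75, and SLC11A2, an importer of iron and manganese, fell by 0.52 and fell by 0.59.

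Genes of signals known to act on metallothionein genes were counted as well. The shares of all genes tested that rose and fell were 28.3% and 26.9% with M5. They were 33.6% and 34.3% with lefamulin over M5, and 34.1% and 38% with retapamulin over M5. Of 12 genes of the STAT3 acute-phase response, 9 rose and 1 fell with M5, and 6 rose and 6 fell with each compound over M5. IL6, which encodes interleukin-6, had 5.82, 6.13, 18.5 and 0.424 CPM on average in ML, MR, M5 and WT libraries, and IL6R, its receptor, 13.5, 29.02, 3.51 and 3.32 CPM. Of 8 glucocorticoid-responsive genes tested, 3 rose and 2 fell with M5, and 3 rose and 4 fell with each compound. TSC22D3, a classic glucocorticoid target, rose by 1.75 with lefamulin and 1.30 with retapamulin over M5, while FKBP5, another one, fell by 0.93 and fell by 1.13.

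The members' patterns were also set against those of 10661 other tested genes with a mean of at least 5 CPM in some group, by the root-mean-square difference of centred log2 CPM over the 12 libraries. The genes closest to MT2A were TNS4, AREG and SERPINB2, at 0.15, 0.19 and 0.20, against a median of 1.28 over all candidates. For each member the named genes were picked as the 3 closest, so distances below the median were fixed by that choice. TNS4, a focal adhesion protein, averaged 64.5, 105, 49.1 and 11.05 CPM in ML, MR, M5 and WT libraries. MT1E lay closest to RAC2, HERPUD1 and GRB7 (0.097 to 0.10) and MT1X to PTK6, SLC20A2 and WNT7A (0.093 to 0.098). MT1F lay closest to MYEOV, ARHGAP29 and UAP1L1 (0.26 to 0.29), and MTF1 to CANX, PARD3 and KIAA1958 (0.072 to 0.081). The medians over all candidates were 0.96 for MT1E, 0.77 for MT1X, 0.91 for MT1F and 0.36 for MTF1. SLC39A14 lay closest to SEL1L3, ACOT9 and TOR4A (0.047 to 0.050, against a median of 0.52). SLC39A8 lay closest to OLR1, CTSB and P2RY6, at 0.17, 0.18 and 0.20, against a median of 1.06. OLR1, a receptor for oxidised lipoprotein, averaged 363, 242, 984 and 176 CPM in ML, MR, M5 and WT libraries. Among the members themselves the smallest distances were between MTF1 and SLC30A1 (0.14), SLC30A1 and SLC39A14 (0.18) and MTF1 and SLC39A14 (0.26). These 3 genes also had the smallest ranges of group means among the members (0.68, 0.83 and 1.26 on the log2 scale for MTF1, SLC30A1 and SLC39A14), and genes that vary little lie close to each other on this measure. MT1E and MT1X were 0.29 apart, and SLC39A8 was at least 0.99 from every other member.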

How the data were processed

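RNA of 12 HaCaT libraries was measured. The deposited table of gene counts holds whole numbers with no normalization; HISAT2 and HTSeq are named in the submitters' processing notes, and the genome build, versions and strandedness were not stated there. The FPKM table deposited by the authors follows from the counts, a constant length per gene and the column total, within a coefficient of variation of 0.001 for all 20422 genes with counts in 2 or more libraries. The extraction text of the labels speaks of mouse tissue, which does not match HaCaT, and was not used.

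Counts were tested in R 4.3.3 with edgeR 4.0.16 (quasi-likelihood test, TMM scaling, filterByExpr, 1 mean per group over all 12 libraries) in 6 comparisons. P-values were adjusted by Benjamini-Hochberg over all 14207 genes, and genes with an adjusted p under 0.05 are called. CPM values are on TMM-scaled library sizes. Nothing says that the 3 libraries of a group came from separate cultures, so p-values measure the spread between these libraries, which may be technical; no pair of libraries of a group agreed within counting noise (chi-square per degree of freedom from 2.78 to 8.84).

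The members, the gene lists and the rule for named genes (all members; up to 2 called genes each way per list with at least 1 CPM; the 3 nearest patterns per member) were chosen with earlier results of these data known; not every gene the rule names is printed, and the nearest patterns of SLC30A1 are not reported here. Alternatives were RLE factors, library totals, DESeq2 1.42.0, other filters, fits of only 2 groups, a replicate block, limma 3.58.1 on log2(FPKM + 1) and log2(FPKM + 0.1), and leaving out each library. Promoter sequences are from RefSeq (GRCh38.p14), matched by symbol for 5 of 8 members.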

Additional observations from a re-analysis of the deposited data

How the results depend on the processing

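The number of members called was 7, 7, 8, 7, 8 and 8 in M5 over WT, ML over M5, MR over M5, ML over MR, ML over WT and MR over WT, and stayed within 1 of that under every alternative run. Of 1008 recomputed fold changes of members, 967 kept their direction and call, 21 lost the call and 20 changed sign. Values near 0 turned with the scaling. MT1X in M5 over WT became -0.091 on library totals and -0.081 and -0.083 on log2(FPKM + 1) and log2(FPKM + 0.1), with -0.063 to 0.13 without single libraries. MT1X in ML over MR became 0.011, 0.013 and 0.013, with -0.13 to 0.00039 without single libraries. MTF1 in ML over M5 became -0.043, -0.034 and -0.041, was -0.0075 without the filter on low counts, and ranged from -0.025 to 0.045 without single libraries. SLC39A8 in MR over WT became -0.034, -0.021 and -0.026. None of these turned values was called. FPKM in place of counts moved the shares of MT2A to 78.6%, 83.0%, 89.2% and 65.9% and those of MT1E to 15.8%, 13.3%, 8.06% and 23.3% in ML, MR, M5 and WT, since the gene length used for MT1E (746 bases) is larger than that for MT2A (401 bases). The deviations of same-numbered libraries from their group means had correlations from -0.14 to 0.18, over 0.1 in 3 of 18 pairs. Of 12 libraries, 4 correlated best with their own number. No pairing by number was seen, and the labels do not say whether the numbers pair the samples. With a replicate block the members called were again 7, 7, 8, 7, 8 and 8. Depth limits MT1F, whose lowest library held 22 counts.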
